A study of Mus musculus with 49 samples.

Results

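The genes described here encode the receptors through which CD8+ T cells sense IL-12, IL-18, IL-6, IL-27, IFN-γ, and IL-10. They are Il12rb1 and Il12rb2 (IL-12 receptor chains), Il18r1 and Il18rap (IL-18 receptor chains), Il6ra, Il6st (gp130), and Il27ra (the gp130 group), Ifngr1 and Ifngr2 (IFN-γ receptor chains), and Il10ra (the ligand-binding chain of the IL-10 receptor). The members were taken by symbol, with the longest transcript of each symbol, and all 10 of them were found among the 23992 gene symbols of the files. All 10 passed the filter on low counts, with 15566 genes tested in all. No measured value entered the rule, but Il12rb2, Il6ra, and Il6st are among the genes that the study itself displayed for these libraries, so their choice was not independent of these data.

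RNA-seq libraries were made from CD8+ T cells isolated with a negative-selection kit from spleens of mice of a Stat5a line and a Stat5b line, both backcrossed to C57BL/6J. In the Stat5a knockin (KI) mice the tyrosine of STAT5A whose phosphorylation activates it is replaced by phenylalanine (Y694F), and in the Stat5b KI mice the corresponding tyrosine of STAT5B is replaced (Y699F). The KI alleles were made by genome editing in zygotes of B6D2F1 mice and also carry silent changes near the cut site. Each line compares homozygous KI cells with cells of wild-type (WT) littermates from matings of heterozygous mice, females and males of 8 to 24 weeks. The cells were taken without culture (0 hr) or cultured for 4, 24, or 48 hr with recombinant human IL-2 at 500 IU/ml, which gives 16 groups of 3 libraries. No culture without IL-2 at a matching time was analysed here, so IL-2 and time in culture cannot be told apart. The nomenclature below gives the line, the genotype, and the time, as in Stat5b KI at 48 hr.

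IL-12 binds a receptor made of IL-12Rβ1 and IL-12Rβ2, which acts through JAK2, TYK2, and STAT4, while IL-18 binds IL-18Rα (Il18r1), recruits the accessory chain (Il18rap), and acts through MYD88 and IRAK kinases. In CD8+ T cells both cytokines are known inducers of IFN-γ. IL-6 and IL-27 share the signalling chain gp130, which acts mainly through STAT3, with IL-6Rα and IL-27Rα as the chains that give specificity. IL-2 acts through STAT5A and STAT5B, and the comparisons ask how the transcripts of these neighbouring receptor systems depend on each of the STAT5 tyrosines.

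The 47 libraries used held a median of 41410666 reads on the longest transcripts (17369112 to 60200653). Replicate 3 of Stat5a KI at 4 hr held 1028515 such reads, which were 5.68% of its mapped reads, and was left out, so that group has 2 libraries. Replicate 2 of Stat5a WT at 4 hr also stood apart, with 44.9% of its mapped reads on the longest transcripts against 68.7% to 84.4% in the other 46. Its RPKM (reads per kilobase of transcript, relative to all mapped reads) were below those of the other libraries of its group for 8 of the 10 receptors, all but Il12rb2 and Il18r1, while the fitted changes scale each library by its own counts. Results at 4 hr in the Stat5a line are therefore also given without it where a call depends on it.

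The label of the cells was checked by markers. The summed RPKM of 5 CD8+ T cell markers was 585 to 1667 over the 47 libraries, and no library was at 0 for any of them. At 0 hr this sum was 932 to 1164 in Stat5a WT against 837 to 881 in Stat5a KI, and 1158 to 1298 against 954 to 1016 in the Stat5b line. At 48 hr it was 1062 to 1184 against 1505 to 1661 in the Stat5a line and 1030 to 1062 against 1498 to 1667 in the Stat5b line. By the call rule 0 of these 5 markers differed between the genotypes at 0 or 48 hr. At 48 hr all 5 had an adjusted p of at most 0.05 in each line (edgeR's quasi-likelihood test), under the 2-fold limit. Markers of other cells were present and differed between the genotypes. The summed RPKM of 5 B cell markers at 48 hr was 11.8 to 35.2 in Stat5a WT against 89.8 to 106.3 in Stat5a KI, and 9.84 to 11.9 in Stat5b WT against 109.97 to 116.02 in Stat5b KI, with Cd79a the most abundant in KI cells and all 5 called higher in KI cells of each line. For 7 myeloid markers, with Lyz2 the most abundant in KI cells, the sum at 48 hr was 3.53 to 7.88 against 20.6 to 53.0 in the Stat5a line and 3.45 to 4.65 against 51.7 to 81.3 in the Stat5b line, and 5 and 7 of them were called higher. Of all genes, 6.35% were called higher and 2.43% lower at 48 hr in Stat5a KI, and 16.5% and 9.81% in Stat5b KI. C1qa, Cd14, and Csf1r were at 0 in some of 4 libraries. For 5 erythroid markers the sum at 48 hr was 4.71 to 8.27 in Stat5b WT against 110.8 to 206 in Stat5b KI, and 4 CD4+ T cell markers summed to 5.50 to 6.51 against 18.3 to 20.3. In these bulk libraries, fewer cells of a type and less RNA per cell cannot be told apart.

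**Figure D1:**
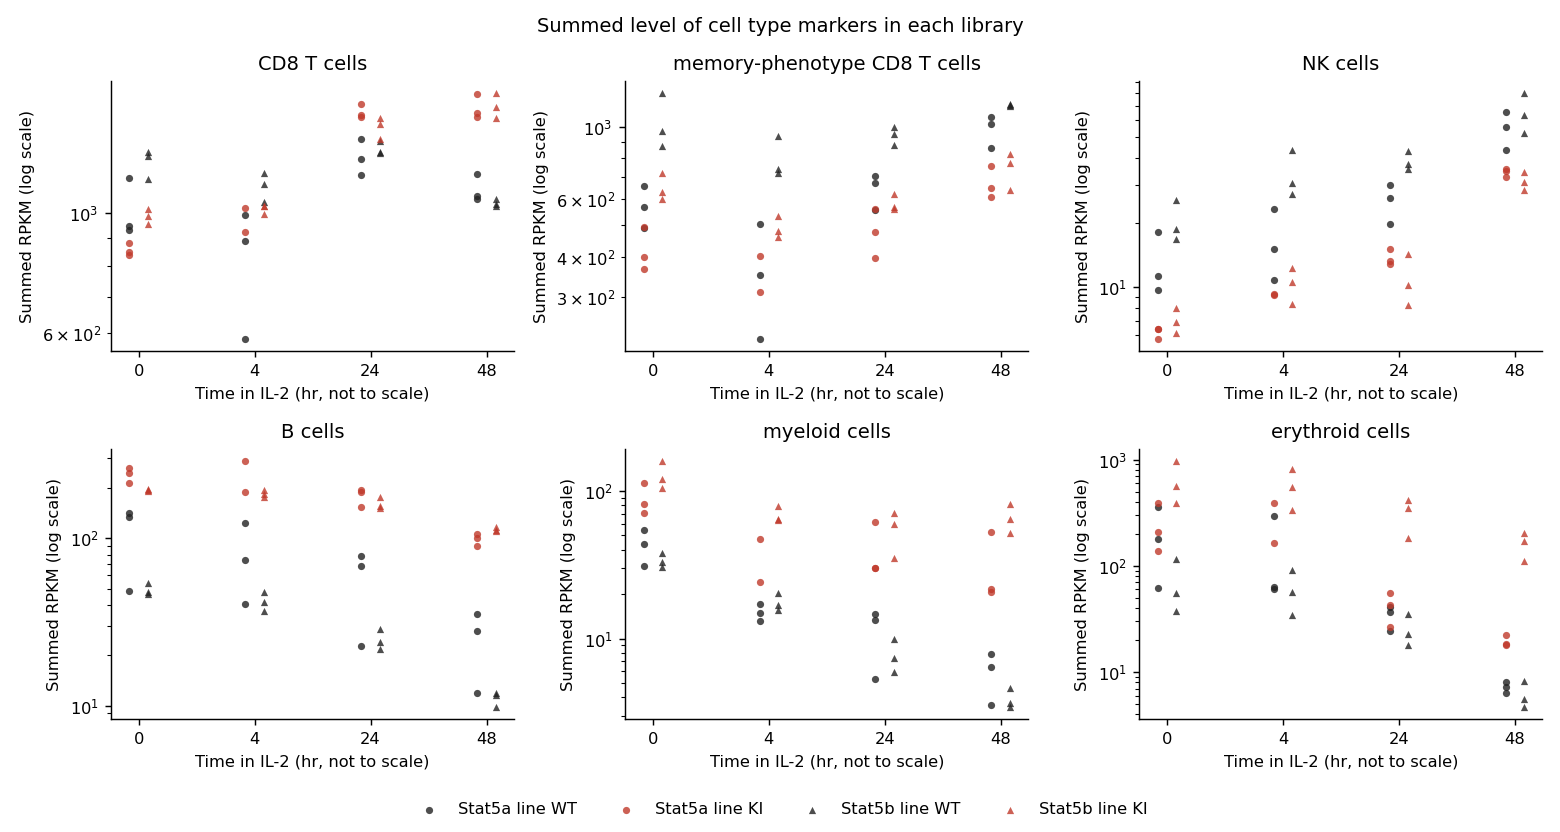
Summed RPKM (log axis) of 6 lists of cell type markers in each of the 47 libraries, 1 point per library, by line, genotype, and time. The B cell and myeloid sums lie higher in KI than in WT cells at 0 and 48 hr in both lines, while the CD8+ T cell sum stays between 585 and 1667.

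The genes lie on 8 chromosomes of GRCm38, the build of the files. Il18r1 (chr1:40466006-40500854, plus strand, 11 exons) and Il18rap (chr1:40515362-40551705, plus strand, 13 exons) are neighbours, with 14.51 kb between the end of the first and the start of the second. The Il18rap transcript counted in the files is 2481 bases long, against a spliced length of 4889 in this RefSeq model. Its RPKM is per the shorter length. Il12rb2 lies at chr6:67292018-67376188 on the minus strand with 16 exons, and Il12rb1 at chr8:70808449-70821424 on the plus strand, also with 16. Il6ra is at chr3:89869324-89913196 (minus, 10 exons), Il6st at chr13:112464070-112506860 (plus, 17 exons), and Il27ra at chr8:84030286-84042575 (minus, 14 exons). Ifngr1 is at chr10:19591949-19610229 (plus, 7 exons), Ifngr2 at chr16:91547059-91564007 (plus, 7 exons), and Il10ra at chr9:45253837-45269149 (minus, 7 exons). RefSeq places other genes over Il12rb2, Il6ra, Il27ra (Palm3), and Il10ra (a microRNA gene), and since the use of strand in counting is not given, reads of such partners cannot be separated from theirs.

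The promoters shown are those of Il12rb2, whose KI effect was large, of Il18r1, whose KI effect came at the start, and of Il6st, whose KI effect had the other direction. Each run holds the 250 bases before the transcript start, 5′ to 3′ on the strand of the gene, from RefSeq on GRCm38.p6, and the capitals mark matches to TTCNNNGAA, the letters of the GAS element that STAT dimers bind.
Il12rb2 (chr6:67376189-67376438, minus strand): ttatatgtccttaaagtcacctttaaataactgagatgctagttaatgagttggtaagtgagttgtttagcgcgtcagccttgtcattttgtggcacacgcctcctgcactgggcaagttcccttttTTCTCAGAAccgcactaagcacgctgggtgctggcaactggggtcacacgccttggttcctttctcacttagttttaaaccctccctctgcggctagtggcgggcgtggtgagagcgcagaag
Il18r1 (chr1:40465756-40466005, plus strand): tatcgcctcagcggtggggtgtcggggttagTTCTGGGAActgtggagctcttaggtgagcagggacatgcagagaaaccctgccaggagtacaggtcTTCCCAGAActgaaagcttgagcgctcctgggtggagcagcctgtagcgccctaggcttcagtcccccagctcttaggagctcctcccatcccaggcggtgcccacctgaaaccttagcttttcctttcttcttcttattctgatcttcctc
Il6st (chr13:112463820-112464069, plus strand): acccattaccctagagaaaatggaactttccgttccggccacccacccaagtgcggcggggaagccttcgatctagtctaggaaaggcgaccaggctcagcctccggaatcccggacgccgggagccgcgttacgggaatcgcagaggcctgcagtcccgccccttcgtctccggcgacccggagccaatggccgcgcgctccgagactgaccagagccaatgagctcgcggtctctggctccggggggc

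The motif was sought in the window of 250 bases before to 50 after the start, where it reads the same on both strands. RefSeq's promoter table held 7 of the 10 members (not Il12rb1, Il27ra, or Il10ra). Il12rb2 has 1 match, TTCTCAGAA at chr6:67376303-67376311, and Il18r1 has 2, TTCTGGGAA at chr1:40465787-40465795 and TTCCCAGAA at chr1:40465854-40465862. The windows of Il18rap, Il6ra, Il6st, Ifngr1, and Ifngr2 hold 0 matches. Of all 32851 promoters of the table, 8.3% hold a match. The AP-1 letters TGANTCA are in 7.81% of all promoters and in 0 of the 7, and the E-box CACGTG is in 7.15% and, among the 7, only in Il6ra, at 24 bases before the start. A match is a run of letters and not a measured binding site.

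By RPKM, which is per length, Ifngr1 was the most abundant of the receptors, with a median level of 112.03 over the 47 libraries and a range of 81.3 to 451. Il27ra followed at a median of 54.3 RPKM, and Il6st and Il6ra had medians of 35.3 and 30.1 RPKM. The medians of Il18r1, Il10ra, and Ifngr2 were 19.8, 19.1, and 18.8 RPKM, and those of Il18rap, Il12rb1, and Il12rb2 were 8.63, 6.64, and 5.82 RPKM. The mean RPKM of the highest of the 16 groups was 31.0 times that of the lowest for Il12rb1 and 15.1 times for Il12rb2, whereas it was 4.82 times for Ifngr1, 2.46 times for Il6st and 1.65 times for Il27ra. For Il12rb1 and Il27ra the lowest group was Stat5a WT at 4 hr. Its replicate 2, with the low share of reads on transcripts, read 0.387 and 15.4 RPKM for these genes, so both ratios depend in part on it. When the 16 groups were put in order of their mean, 9 of the 15 neighbouring pairs of groups overlapped for Il12rb1 and for Il12rb2, and 14 of 15 overlapped for Il18r1, Il18rap, and Il27ra.

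**Figure D2:**
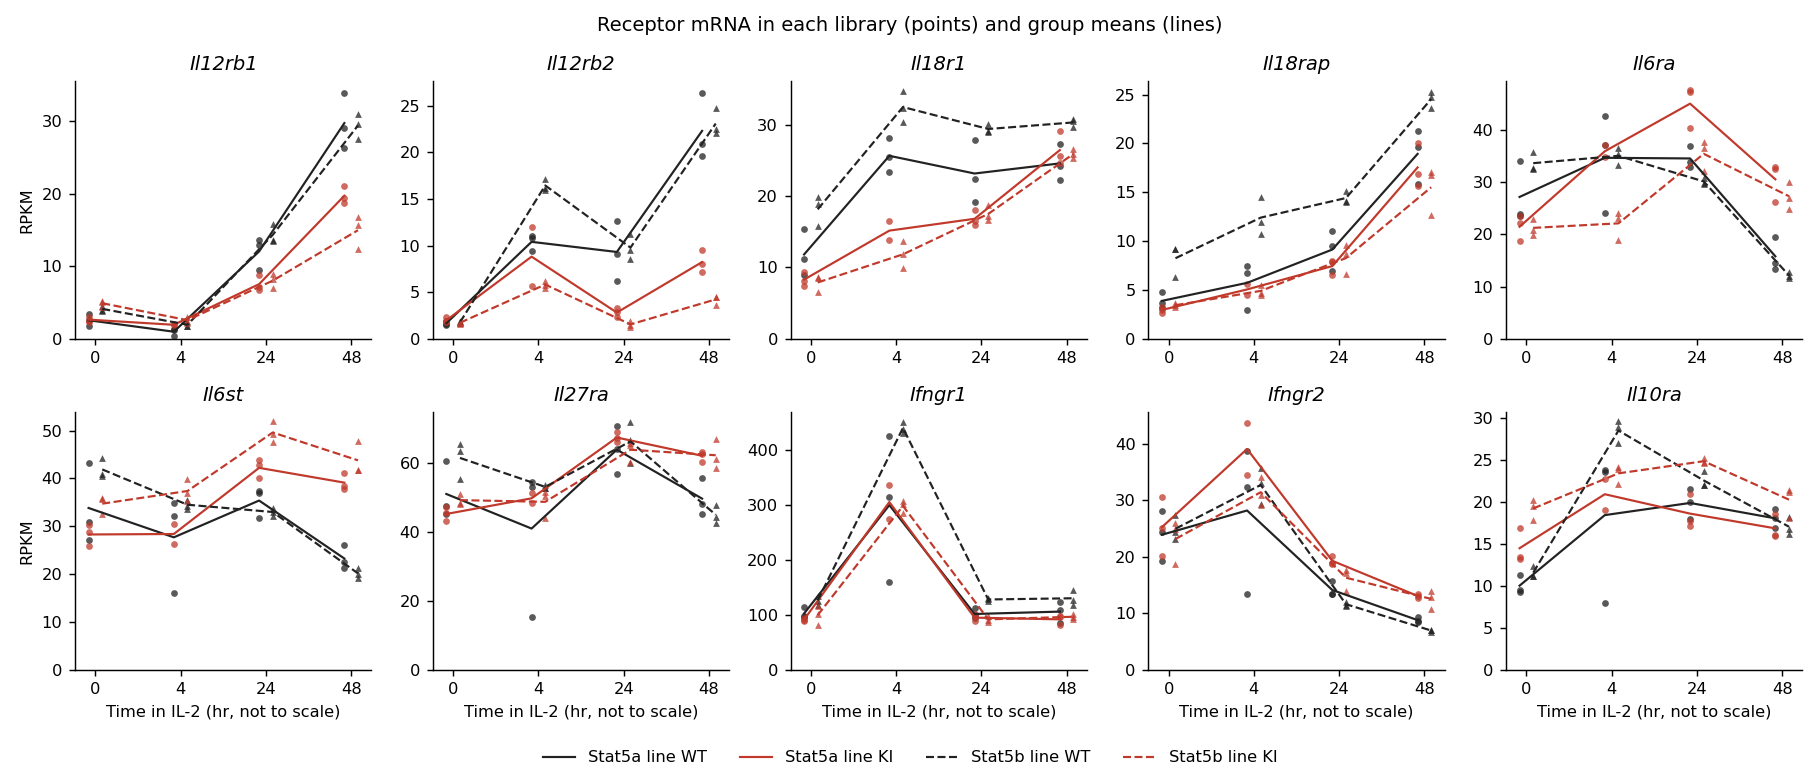
RPKM of the 10 receptor genes against hours with IL-2, 1 panel per gene, with a point for each library and a line through the group means for the WT and KI cells of both lines. Il12rb1 and Il12rb2 climb from below 6 RPKM at 0 hr, Ifngr1 peaks at 4 hr, and the group means of Il6ra and Il6st are lowest in WT cells at 48 hr.

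A gene was called where edgeR's quasi-likelihood test gave a Benjamini-Hochberg adjusted p, over all genes tested, of at most 0.05 and the fold change was at least 2. In WT cells at 4 hr of IL-2, 3 of the 10 receptors were called higher and 1 lower in each line, while 10.0% and 11.4% of all genes were called higher and lower for Stat5a WT and 5.83% and 9.89% for Stat5b WT. At 24 hr 3 were higher and 0 lower in Stat5a WT (all genes, 8.72% and 14.2%), and 2 were higher and 1 lower in Stat5b WT (9.07% and 13.5%). At 48 hr 3 were higher and 1 lower in Stat5a WT (14.3% and 22.3%), and 3 were higher and 3 lower in Stat5b WT (14.6% and 20.7%). A count of 1 lower of 10 at 4 hr is near the share of all genes, and nothing is read from it. The times share the 0 hr libraries. Between successive times 1 receptor was called higher and 2 lower from 4 to 24 hr in each line (7.46% and 12.1% of all genes in Stat5a WT, 7.34% and 7.49% in Stat5b WT), and from 24 to 48 hr 3 were higher and 1 lower in Stat5a WT (3.83% and 5.56%) and 2 were higher and 1 lower in Stat5b WT (3.05% and 4.82%). The median log2 change of the 10 at 48 hr was 0.24 in Stat5a WT and 0.13 in Stat5b WT, against -0.12 and -0.13 for all genes.

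Between KI and WT cells, 0 receptors of 10 were called at 0 hr in the Stat5a line (0.861% of all genes were called higher and 0.180% lower), and 2 were called lower in the Stat5b line (7.38% and 0.604%). At 4 hr 1 was lower in Stat5a KI (2.47% and 4.16%), and 3 were lower in Stat5b KI (9.20% and 1.23%). At 24 hr 1 was lower in Stat5a KI (3.21% and 1.24%) and 1 in Stat5b KI (10.9% and 5.77%). At 48 hr 1 was lower in Stat5a KI (6.35% and 2.43%), and in Stat5b KI 2 were lower and 2 higher (16.5% higher and 9.81% lower). The median log2 difference of the 10 in the Stat5b line was -0.36 at 0 hr, -0.54 at 4 hr, -0.29 at 24 hr, and -0.07 at 48 hr, against 0.01, -0.03, 0.07, and 0.10 for all genes. In the Stat5a line it was -0.19, -0.20, -0.16, and -0.05, against 0.00, 0.04, 0.01, and 0.04.

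**Figure D3:**
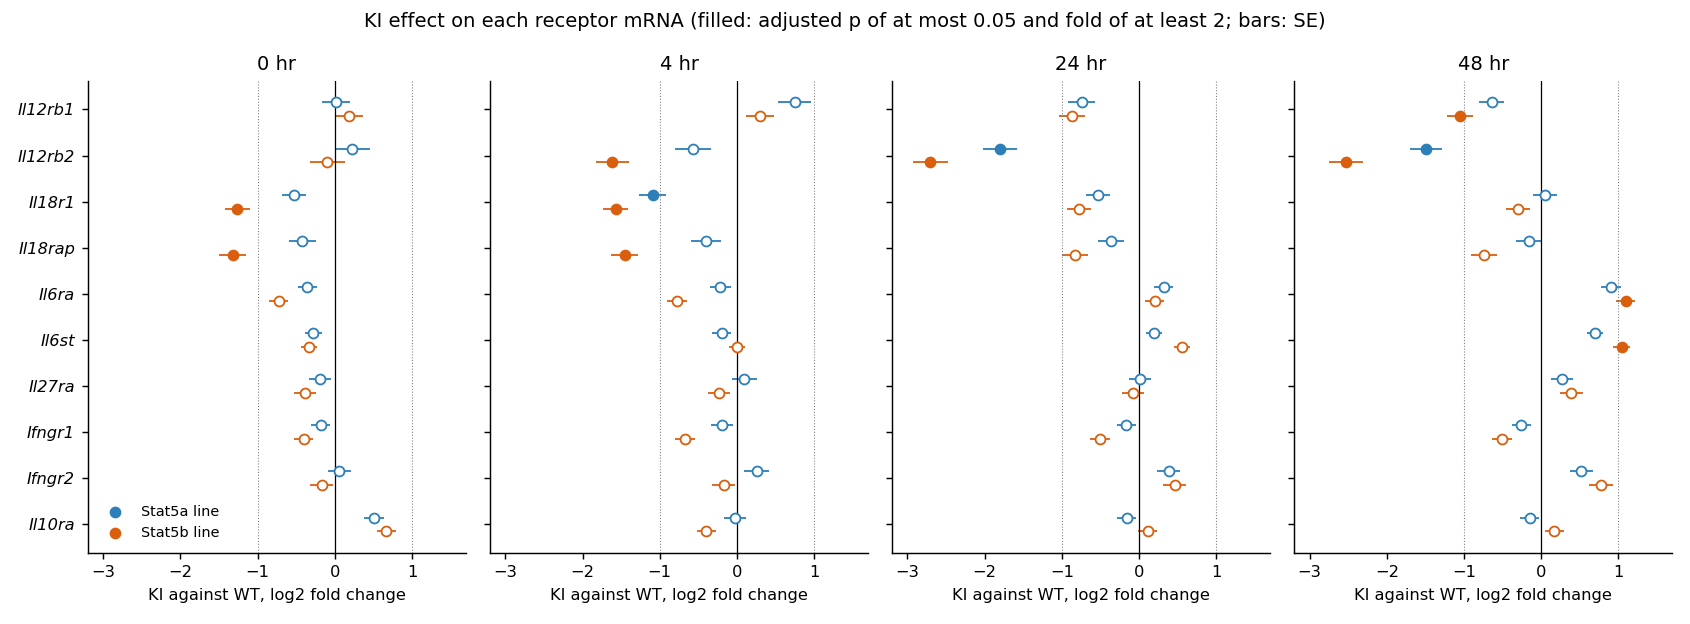
Log2 difference between KI and WT cells (edgeR fit, bars are standard errors) for the 10 receptors at each time, in the Stat5a and the Stat5b line, with filled points for called differences. Il12rb2 lies near 0 at 0 hr and reaches -2.70 in the Stat5b line at 24 hr, while Il18r1 and Il18rap are low in Stat5b KI cells at 0 and 4 hr.

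Il12rb2, the chain that makes the IL-12 receptor complete and recruits STAT4, rose with IL-2 in WT cells of both lines and was lower in KI cells from 4 or 24 hr on. At 0 hr its RPKM were 1.60, 1.92, and 1.46 in Stat5a WT, 2.28, 1.89, and 1.74 in Stat5a KI, 1.64, 1.86, and 1.74 in Stat5b WT, and 1.83, 1.67, and 1.62 in Stat5b KI. The genotypes overlapped before culture in both lines, with log2 differences of 0.23 ± 0.23 (SE) and -0.10 ± 0.23. In WT cells the RPKM were 9.38, 10.8, and 11.01 at 4 hr for Stat5a and 16.2, 16.0, and 17.2 for Stat5b, the latter being 8.34-fold over 0 hr. At 24 hr the WT libraries read 6.21, 12.7, and 9.06 RPKM and 9.54, 11.2, and 8.60 RPKM, and at 48 hr 19.6, 26.4, and 21.0 RPKM and 22.1, 22.5, and 24.7 RPKM. The course in Stat5b WT was therefore not a steady climb, since all 3 libraries at 24 hr lay below all 3 at 4 hr, by a log2 difference of -0.76 (adjusted p = 0.00227, under the 2-fold limit), before the second rise of 1.25 to 48 hr. The rise over 0 hr at 48 hr was 11.6-fold in Stat5a WT (adjusted p = 3.98e-16) and 11.7-fold in Stat5b WT (adjusted p = 3.92e-16).

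In Stat5b KI cells Il12rb2 read 6.21, 5.82, and 5.42 RPKM at 4 hr, 1.48, 1.24, and 1.88 RPKM at 24 hr, and 4.52, 3.65, and 4.49 RPKM at 48 hr. No Stat5b KI library reached the lowest WT library of its time. The KI level was 3.06-fold lower at 4 hr (adjusted p = 4.6e-07), 6.51-fold lower at 24 hr (adjusted p = 3.46e-12), and 5.78-fold lower at 48 hr (adjusted p = 2.13e-12). In Stat5a KI cells it read 5.64 and 11.98 RPKM at 4 hr, 3.24, 2.33, and 2.84 RPKM at 24 hr, and 9.48, 7.16, and 8.04 RPKM at 48 hr. The pair of libraries at 4 hr lay on either side of the WT libraries, and at 24 and 48 hr all KI libraries lay below all WT libraries. The difference was -0.57 ± 0.24 on the log2 scale at 4 hr (adjusted p = 0.0706, and -0.27 with adjusted p = 0.465 without the WT library with few reads on transcripts), and the KI level was 3.48-fold lower at 24 hr (adjusted p = 6.88e-07) and 2.81-fold lower at 48 hr (adjusted p = 4.06e-07).

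The early rise of Il12rb2 was called in KI cells too, but no change from 0 hr was called there at 24 hr. Against their own 0 hr, Stat5a KI cells had a log2 change of 1.95 at 4 hr, 0.29 at 24 hr (adjusted p = 0.271), and 1.82 at 48 hr, and Stat5b KI cells had 1.54 at 4 hr, -0.31 at 24 hr (adjusted p = 0.286), and 1.11 at 48 hr. Those at 4 and 48 hr were called and those at 24 hr were not, though the Stat5b KI call at 48 hr is lost in limma on log2(RPKM + 1), at 0.94, and the Stat5b KI libraries at 24 hr, 1.24 to 1.88 RPKM, spanned those at 0 hr, 1.62 to 1.83 RPKM. The Stat5a KI change at 4 hr rests on 2 libraries that differ from each other. It lay between 1.26 and 2.41 and was called in 14 of 14 settings tried. Counts of receptors called in KI cells at 24 hr were 2 higher and 0 lower in the Stat5a line (all genes, 7.36% and 13.8%) and 1 higher and 0 lower in the Stat5b line (4.59% and 11.2%). At 4 hr they were 2 and 0 (6.58% and 11.2%) and 2 and 1 (4.92% and 8.85%), and at 48 hr 4 and 1 in both lines (9.31% and 16.7%, and 5.56% and 13.2%).

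Il12rb1, the chain that the receptors of IL-12 and IL-23 share, followed another course. At 0 hr it read 1.76, 2.52, and 3.34 RPKM in Stat5a WT and 3.77, 3.98, and 4.57 RPKM in Stat5b WT. At 4 hr it read 1.21, 0.387, and 1.27 RPKM in Stat5a WT, the middle value being the library with few reads on transcripts, and 1.68, 1.76, and 2.32 RPKM in Stat5b WT. It therefore fell at first, by 1.41 on the log2 scale in Stat5a WT (adjusted p = 9.9e-08, and by 1.22 without that library) and by 1.28 in Stat5b WT (adjusted p = 2.26e-07), at the time when Il12rb2 had risen. By 24 hr the libraries read 9.53, 12.96, and 13.6 RPKM and 13.5, 15.8, and 13.6 RPKM, and by 48 hr 29.1, 33.8, and 26.2 RPKM and 29.6, 27.6, and 31.0 RPKM. The rise over 0 hr at 48 hr was 10.1-fold in Stat5a WT (adjusted p = 2.99e-18) and 6.34-fold in Stat5b WT (adjusted p = 6.32e-16), and each step from 4 to 24 hr and from 24 to 48 hr was called in both lines. In limma on log2(RPKM + 1) the step from 24 to 48 hr in Stat5b WT, at 0.99, and the falls at 4 hr, at -0.86 and -0.81, were under the 2-fold limit.

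In KI cells the late rise of Il12rb1 was smaller. At 48 hr it read 21.0, 19.3, and 18.7 RPKM in Stat5a KI and 15.7, 16.8, and 12.4 RPKM in Stat5b KI, all below the WT libraries. The Stat5b KI level was 2.08-fold lower (log2 difference -1.05 ± 0.17, adjusted p = 1.11e-06), and the Stat5a KI difference of -0.64 ± 0.17 (adjusted p = 0.00165) was under the 2-fold limit. At 24 hr the log2 differences were -0.75 for Stat5a (adjusted p = 0.0017) and -0.87 for Stat5b (adjusted p = 4.83e-05). At 0 hr they were 0.02 and 0.19, and at 4 hr the Stat5a KI libraries, at 1.82 and 2.00 RPKM, lay above the WT libraries, with a log2 difference of 0.75 (adjusted p = 0.0121, and 0.55 with adjusted p = 0.0842 without the WT library with few reads on transcripts). The call in the Stat5b line at 48 hr is lost without replicate 3 of Stat5b KI and in both limma fits on log2 RPKM, and the log2 difference lay between -1.19 and -0.94 over all settings tried.

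In the Stat5b line the IL-18 receptor genes were called lower in KI cells at 0 and 4 hr and were not called at 24 and 48 hr. Il18r1, the ligand-binding chain, read 15.8, 19.8, and 18.9 RPKM in Stat5b WT at 0 hr and 8.57, 6.49, and 8.61 RPKM in Stat5b KI. All KI libraries lay below all WT libraries, and the level was 2.40-fold lower in KI (adjusted p = 7.82e-07). At 4 hr WT cells read 30.5, 32.4, and 34.8 RPKM and KI cells 13.7, 9.99, and 11.8 RPKM, which was 2.97-fold lower (adjusted p = 2.51e-09). At 24 hr the values were 29.1, 29.1, and 30.2 RPKM against 18.8, 16.7, and 17.2 RPKM, a log2 difference of -0.78 (adjusted p = 7.87e-05). At 48 hr they were 29.7, 30.6, and 30.8 RPKM against 26.6, 26.0, and 25.3 RPKM, a log2 difference of -0.30 ± 0.16 (adjusted p = 0.0852). The gap in Stat5b cells was thus largest at 4 hr among these times and was not called from 24 hr on.

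In the Stat5a line Il18r1 read 8.90, 11.2, and 15.4 RPKM in WT and 7.40, 9.39, and 8.10 RPKM in KI cells at 0 hr, so that the genotypes overlapped (log2 difference -0.53 ± 0.16, adjusted p = 0.0552). At 4 hr WT cells read 23.4, 25.5, and 28.1 RPKM and KI cells 13.9 and 16.5 RPKM, which was 2.13-fold lower (adjusted p = 0.000128). This call rests on the WT library with few reads on transcripts, without which the log2 difference was -0.83 (adjusted p = 0.0011), and on replicate 1 of the KI cells. It is also lost in both limma fits on log2 RPKM and in the fit of only the groups compared, where the adjusted p was 0.735, and it was kept in 9 of 14 settings. At 48 hr the libraries read 22.2, 24.2, and 27.4 RPKM against 29.2, 25.6, and 24.7 RPKM and overlapped, with a log2 difference of 0.05 ± 0.16 (adjusted p = 0.819). Over 0 hr, Il18r1 rose by 1.21 on the log2 scale in Stat5a WT at 4 hr (adjusted p = 4.12e-08, but 0.95 and under the 2-fold limit without that WT library), and the change at 48 hr was 0.85 in Stat5a WT and 0.57 in Stat5b WT, both under the limit. In KI cells the rise by 48 hr was called, at 1.43 for Stat5a and 1.53 for Stat5b (adjusted p = 4.47e-10).

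Il18rap, the accessory chain that the receptor needs to signal, behaved like its neighbour at the start and had a larger rise. At 0 hr it read 6.31, 9.19, and 9.22 RPKM in Stat5b WT and 3.67, 3.20, and 3.41 RPKM in Stat5b KI, a log2 difference of -1.32 ± 0.18 (adjusted p = 1.54e-06). At 4 hr the values were 10.7, 14.5, and 11.97 RPKM against 5.51, 4.52, and 4.64 RPKM, 2.74-fold lower (adjusted p = 7.47e-08). At 48 hr they were 24.7, 25.3, and 23.6 RPKM against 16.8, 17.1, and 12.7 RPKM. The groups did not overlap at any of these times, but the log2 difference at 48 hr, -0.74 ± 0.17 (adjusted p = 0.000226), was under the 2-fold limit. In the Stat5a line the libraries at 48 hr read 15.9, 21.3, and 19.6 RPKM in WT and 20.1, 15.7, and 16.9 RPKM in KI cells and overlapped, and none of the Stat5a differences was called, the largest with all 47 libraries being -0.42 at 0 hr (adjusted p = 0.214). Without the WT library with few reads on transcripts the difference at 4 hr was -0.56 (adjusted p = 0.0532) and was not called either. By 48 hr Il18rap had risen 4.23-fold over 0 hr in Stat5a WT (adjusted p = 4.76e-13), 2.65-fold in Stat5b WT (adjusted p = 3.58e-09), and 5.05-fold in Stat5a KI cells. In Stat5b KI cells the rise was called in 15 of 15 settings tried, at log2 changes of 1.89 to 2.15.

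Markers of memory-phenotype CD8+ T cells and of NK cells, both of which are known to carry IL-18 receptors, were measured in the same libraries. The summed RPKM of 5 memory-phenotype markers, with Ccl5 the most abundant, was 874 to 1267 in Stat5b WT and 601 to 724 in Stat5b KI at 0 hr, and 489 to 658 against 367 to 494 in the Stat5a line. The genotypes of the Stat5a line overlapped in this sum. At 4 hr it was 720 to 935 against 458 to 533 in the Stat5b line, and 224 to 503 against 312 to 401 in the Stat5a line, where it overlapped again. At 24 hr it was 882 to 996 in Stat5b WT and 559 to 623 in Stat5b KI, without overlap, and 555 to 708 in Stat5a WT and 397 to 562 in Stat5a KI, with overlap. At 48 hr it was 1157 to 1176 against 640 to 827 for Stat5b and 861 to 1073 against 608 to 761 for Stat5a, without overlap in either line. Of the 5 memory-phenotype markers, 0 were called between the genotypes at 0 hr in either line, at 4 hr 1 was called lower in Stat5b KI and 0 in Stat5a KI, and at 48 hr 1 was called higher (Ccl5) and 2 lower (Il2rb and Ly6c2) in Stat5b KI and 0 in Stat5a KI. At 24 hr 0 of these 5 were called higher and 2 lower in Stat5b KI, and 0 were called in Stat5a KI. Il2rb is among the genes that the study itself names as STAT5 targets, so its level in KI cells is no independent measure of this cell type. The shares of all genes called between the genotypes at each time are those given above for the receptors. The summed RPKM of 5 NK cell markers was 16.8 to 25.5 against 6.15 to 7.97 in the Stat5b line at 0 hr, 27.2 to 43.7 against 8.32 to 12.2 at 4 hr, 35.6 to 43.1 against 8.22 to 14.29 at 24 hr, and 52.5 to 80.0 against 28.5 to 34.4 at 48 hr. For Stat5a it was 9.72 to 18.0 in WT against 5.74 to 6.4015 in KI at 0 hr, 10.9 to 23.1 against 9.17 to 9.32 at 4 hr, 19.6 to 29.8 against 12.86 to 14.99 at 24 hr, and 43.6 to 65.5 against 32.5 to 35.5 at 48 hr. The KI sums of the NK markers thus lay below the WT sums at every time in both lines. At 0 and at 4 hr 0 of the 5 were called higher and 3 lower in Stat5b KI, and 0 higher and 2 lower in Stat5a KI. At 24 hr 0 of the 5 NK markers were called higher and 3 lower in the KI cells of each line. The NK markers did not move together at 48 hr, where 2 of the 5 (Ncr1 and Klra8) were called higher and 3 (Klrb1c, Klre1, and Klrc1) lower in Stat5b KI, and 0 higher and 2 lower in Stat5a KI. None of the memory-phenotype or NK markers was at 0 in any library. Their part in the differences of Il18r1, Il18rap, Il12rb1, and Il12rb2 was not tested.

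Il6ra, the ligand-binding chain for IL-6, and Il6st, the gp130 chain, fell by 48 hr in Stat5b WT and were then higher in the KI cells of that line, while in the Stat5a line the corresponding values were under the 2-fold limit. At 0 hr Il6ra read 23.9, 23.5, and 34.1 RPKM in Stat5a WT and 32.6, 32.7, and 35.8 RPKM in Stat5b WT. The WT levels stayed near this at 24 hr (36.9, 32.9, and 33.9 RPKM, and 30.9, 29.7, and 29.9 RPKM) and at 48 hr were 19.5, 13.4, and 14.5 RPKM and 12.01, 11.6, and 12.8 RPKM. The 48 hr libraries lay below all those at 0 and 24 hr in both lines. Against 0 hr, Il6ra fell 3.13-fold in Stat5b WT (adjusted p = 3.23e-14), and in Stat5a WT the change of -0.99 (adjusted p = 8e-09) was just under the 2-fold limit, which it passed with DESeq2 size factors. The step from 24 to 48 hr was called in both lines, at -1.17 (adjusted p = 2.29e-09) and -1.30 (adjusted p = 2.86e-10).

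In KI cells Il6ra at 48 hr read 26.2, 32.9, and 32.6 RPKM for Stat5a and 30.1, 25.0, and 27.0 RPKM for Stat5b, above all WT libraries of that time. The Stat5b KI level was 2.13-fold higher (adjusted p = 1.56e-09), and the Stat5a KI level was 1.87-fold higher (adjusted p = 2.57e-07), under the 2-fold limit. Against their own 0 hr the KI cells had log2 changes of 0.27 (adjusted p = 0.0531) and 0.17 (adjusted p = 0.256). At 0 hr the Stat5b KI libraries, at 23.0, 19.9, and 20.9 RPKM, lay below the WT libraries, with a log2 difference of -0.73 (adjusted p = 5.48e-05), and at 4 hr the difference was -0.78 (adjusted p = 1.07e-05). The sign of the Il6ra difference in the Stat5b line thus changed between 4 and 48 hr.

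Il6st moved less. It read 41.0, 40.4, and 44.2 RPKM in Stat5b WT at 0 hr, 33.7, 33.0, and 32.2 RPKM at 24 hr, and 20.0, 19.2, and 21.2 RPKM at 48 hr, without overlap between these times. It fell 2.35-fold by 48 hr (adjusted p = 7.88e-13). In Stat5b KI it read 35.7, 32.6, and 35.9 RPKM at 0 hr and 47.8, 41.8, and 41.7 RPKM at 48 hr, a log2 change of 0.14 (adjusted p = 0.266). At 48 hr it was 2.06-fold higher in KI than in WT cells (log2 difference 1.04 ± 0.11, adjusted p = 1.04e-10), a value close to the limit that lay between 0.97 and 1.11 over all settings tried and was called in 10 of 15 of them. The call is lost without replicate 2 of Stat5b WT or replicate 1 of Stat5b KI at 48 hr, with all 48 libraries, with no filter on low counts, and with the transcript of the highest mean count. In the Stat5a line it read 26.0, 21.3, and 22.5 RPKM in WT and 38.5, 37.8, and 41.0 RPKM in KI cells at 48 hr, without overlap, and 1.62-fold higher in KI (adjusted p = 1.3e-06), under the 2-fold limit.

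Markers of naive T cells, which are known to carry IL-6 receptors, differed alongside. The summed RPKM of 4 naive T cell markers at 48 hr was 538 to 609 in Stat5a WT against 870 to 904 in Stat5a KI, and 484 to 521 in Stat5b WT against 943 to 1018 in Stat5b KI, while at 0 hr it was 1019 to 1168 in Stat5b WT and 890 to 977 in Stat5b KI. Of these 4 markers, 0 were called in the Stat5a line and 2 were called higher in Stat5b KI at 48 hr. Of all genes, 6.35% were called higher and 2.43% lower in Stat5a KI at that time, and 16.5% and 9.81% in Stat5b KI. All 4 had an adjusted p of at most 0.05 in each line (edgeR's quasi-likelihood test), with median log2 differences of 0.67 and 0.94. The part of these cells, and of the B cells and myeloid cells above, in the levels of Il6ra and Il6st was not tested.

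Il27ra, the specific chain of the IL-27 receptor, was the steadiest of the 10 by the ratio of its group means. It was called in none of the comparisons between times or genotypes. Its RPKM at 48 hr were 55.5, 45.1, and 48.1 in Stat5a WT and 63.1, 62.6, and 60.2 in Stat5a KI, and 44.3, 42.5, and 47.7 in Stat5b WT and 66.8, 58.5, and 61.0 in Stat5b KI. The KI libraries lay above the WT libraries in both lines, with log2 differences of 0.27 ± 0.14 (adjusted p = 0.127) and 0.39 ± 0.14 (adjusted p = 0.0177). Among the chains of the gp130 group, Il6ra, Il6st, and Il27ra therefore all had their KI libraries above their WT libraries at 48 hr, with sizes that ran from below to above the 2-fold limit.

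Ifngr1, the ligand-binding chain of the IFN-γ receptor, had a short peak. At 0 hr it read 96.0, 98.0, and 113.8 RPKM in Stat5a WT and 125.01, 118.95, and 135.2 RPKM in Stat5b WT. At 4 hr it read 315, 160.1, and 425 RPKM in Stat5a WT and 451, 439.8, and 432 RPKM in Stat5b WT, and by 24 hr it was back at 94.1, 99.0, and 112.03 RPKM and 128.4, 130.1, and 125.999 RPKM. The rise at 4 hr was 2.88-fold (adjusted p = 1.81e-12) and 3.09-fold (adjusted p = 4.57e-13), and it was also called in KI cells, at log2 changes of 1.51 and 1.36. In Stat5b KI at 4 hr it read 308, 303, and 286 RPKM, below all WT libraries, 1.60-fold lower (adjusted p = 0.000105) and under the 2-fold limit. No difference between the genotypes was called for Ifngr1 at any time in either line.

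Ifngr2, the signalling chain of that receptor, was lower at 48 hr than at 0 hr. It read 24.4, 28.1, and 19.2 RPKM in Stat5a WT at 0 hr and 9.30, 8.67, and 8.41 RPKM at 48 hr, and 24.3, 23.2, and 27.4 RPKM in Stat5b WT at 0 hr and 7.07, 6.73, and 7.04 RPKM at 48 hr. The 48 hr libraries lay below all 0 hr libraries, 3.14-fold lower in Stat5a WT (adjusted p = 6.04e-12) and 4.05-fold lower in Stat5b WT (adjusted p = 4.16e-14). At 4 hr it read 38.8, 13.4, and 32.4 RPKM in Stat5a WT, where the low value is that of the library with few reads on transcripts, and 35.8, 29.3, and 33.1 RPKM in Stat5b WT, above all Stat5b WT libraries at 0 hr. The log2 changes from 0 hr to 4 hr were 0.20 (adjusted p = 0.247) and 0.22 (adjusted p = 0.236) and were not called. Without that library the Stat5a WT change was 0.40 (adjusted p = 0.0152), under the 2-fold limit. In KI cells it also fell by 48 hr, with log2 changes of -1.19 and -1.08. Both of these KI calls are lost in the limma fits on log2 RPKM with either pseudocount, and the one in Stat5b KI also without replicate 3 at 0 hr or replicate 2 at 48 hr, and over all settings tried the log2 changes lay between -1.33 and -0.88 in Stat5a KI and between -1.22 and -0.83 in Stat5b KI. At 48 hr the KI libraries, at 13.5, 13.1, and 12.7 RPKM and 14.03, 10.8, and 12.8 RPKM, lay above the WT libraries in both lines, with log2 differences of 0.52 (adjusted p = 0.00523) and 0.77 (adjusted p = 4.37e-05), under the 2-fold limit.

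Il10ra, the ligand-binding chain for IL-10, was the member whose KI libraries lay above its WT libraries at the start in both lines. At 0 hr it read 9.24, 11.3, and 9.53 RPKM in Stat5a WT against 16.9, 13.2, and 13.5 RPKM in Stat5a KI, and 11.2, 12.4, and 11.2 RPKM in Stat5b WT against 20.3, 19.6, and 17.9 RPKM in Stat5b KI. All KI libraries lay above all WT libraries, with log2 differences of 0.51 ± 0.13 (adjusted p = 0.0199) and 0.67 ± 0.13 (adjusted p = 0.000186), under the 2-fold limit. At 4 hr it read 27.1, 29.7, and 28.9 RPKM in Stat5b WT, a rise of 2.18-fold (adjusted p = 2.03e-09), against 24.2, 23.9, and 22.2 RPKM in Stat5b KI, a log2 change of 0.06 from KI cells at 0 hr (adjusted p = 0.731). In Stat5a WT at 4 hr it read 23.6, 7.93, and 23.9 RPKM, a log2 change of 0.83 (adjusted p = 7.63e-07) that passed the 2-fold limit, at 1.06, without the library with few reads on transcripts. B cells and myeloid cells are known to carry IL-10 receptors, and the part of their markers in the KI level at 0 hr, where the B cell sum was 46.6 to 54.3 in Stat5b WT and 192 to 197 in Stat5b KI, was not tested.

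**Figure D4:**
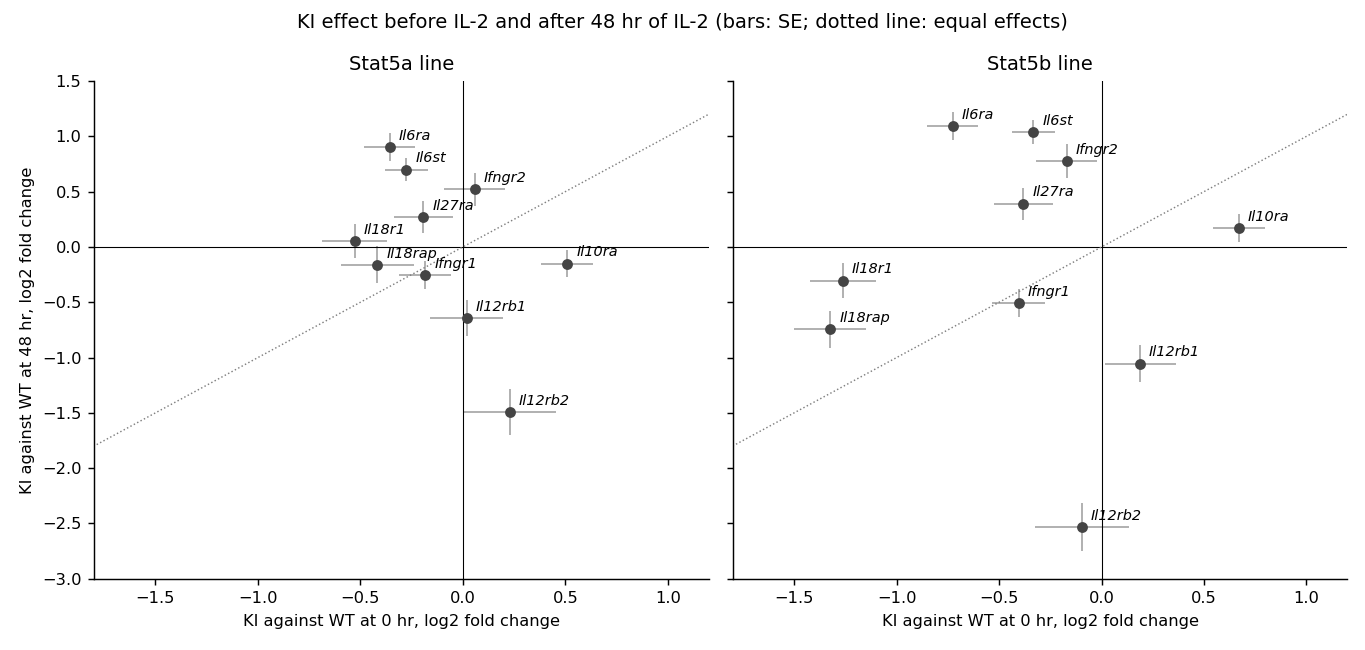
Log2 difference between KI and WT cells at 0 hr (horizontal) against that at 48 hr (vertical) for each receptor, in the Stat5a and the Stat5b line. In the Stat5b line Il12rb2 lies low on the vertical axis only, Il18r1 and Il18rap lie to the left, and Il6ra and Il6st lie above 0 at 48 hr.

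Whether KI cells differed from WT cells in the change over culture with IL-2 was tested by the difference of their log2 changes from 0 hr. In the Stat5b line at 48 hr 2 receptors were called with a higher and 2 with a lower change in KI cells (all genes, 10.3% and 11.1%), and the median of the 10 was 0.68 against 0.08 for all genes. The difference was -2.43 for Il12rb2 (adjusted p = 3.79e-08), -1.24 for Il12rb1 (adjusted p = 4.21e-05), 1.82 for Il6ra (adjusted p = 7.92e-11), and 1.37 for Il6st (adjusted p = 9.78e-10). In the Stat5a line at 48 hr 1 was called higher and 1 lower (3.16% and 3.09%), namely Il6ra at 1.26 (adjusted p = 1.5e-06) and Il12rb2 at -1.72 (adjusted p = 6.39e-05). Il6st, at 0.97 in the Stat5a line (adjusted p = 6.12e-06), and Il18r1, at 0.96 in the Stat5b line (adjusted p = 0.000445), fell just under the 2-fold limit.

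The same test separated the receptors at the earlier times. At 24 hr 0 were called higher and 1 lower in the Stat5a line (all genes, 0.276% and 1.31%), which was Il12rb2 at -2.03 (adjusted p = 0.000135). In the Stat5b line 0 were higher and 2 lower at 24 hr (3.51% and 6.66%), Il12rb2 at -2.61 (adjusted p = 3.65e-08) and Il12rb1 at -1.05 (adjusted p = 0.000646). The Il12rb1 value lay between -1.13 and -0.93 and its call is lost in limma on log2(RPKM + 1) and with any 1 of 3 libraries left out (replicate 1 of Stat5b WT at 0 hr, replicate 2 of Stat5b WT and replicate 1 of Stat5b KI at 24 hr). At 4 hr 0 were called for Stat5a (0.116% and 0.225%), while for Stat5b 0 were higher and 2 lower (0.0964% and 0.514%), Il12rb2 at -1.52 (adjusted p = 0.00333) and Il10ra at -1.07 (adjusted p = 0.00024). Both calls at 4 hr are lost with all 48 libraries. The Il10ra call is also lost in both limma fits on log2 RPKM and without replicate 3 of Stat5b WT at 0 hr. For the IL-18 receptor genes, whose KI levels were already low at 0 hr in the Stat5b line, no difference of the changes was called.

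Whether the Stat5b KI effect was larger than the Stat5a KI effect was tested by their difference. At 4 hr 2 receptors were called lower and 0 higher in this comparison (all genes, 0.392% and 4.33%), Il12rb2 at -1.04 ± 0.31 (adjusted p = 0.0294) and Il18rap at -1.05 ± 0.26 (adjusted p = 0.0128). Without the WT library with few reads on transcripts the Il18rap value was -0.89, under the 2-fold limit, and the Il12rb2 value was -1.34 and still called. At 48 hr 1 was called lower (0.514%) and 0 higher (1.55%), Il12rb2 at -1.04 ± 0.29 (adjusted p = 0.018), and at 0 and 24 hr 0 were called (0.0707% higher and 0.0257% lower, and 1.39% and 1.27%). The 4 hr values rest on the 2 Stat5a KI libraries that differ from each other, and with replicate 2 of Stat5a KI, or replicate 2 or 3 of Stat5b KI, left out, 1 call was made over the times in place of 3, and 0 with all 48 libraries. Over all settings the Il12rb2 difference lay between -1.52 and -0.38 at 4 hr and between -1.17 and -0.88 at 48 hr.

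The other genes of these pathways were taken from lists of partner receptors, ligands, decoys, signalling proteins, feedback inhibitors, and transcription factors of the type 1 programme. Of 17 partner receptors tested, 2 were called higher and 8 lower in WT cells at 48 hr of IL-2 in each line, with median log2 changes of -1.86 and -0.84. Of all genes, 14.3% were called higher and 22.3% lower in Stat5a WT and 14.6% and 20.7% in Stat5b WT, with medians of -0.12 and -0.13. Il10rb, the partner of IL-10Rα, rose by 1.48 and 1.25 on the log2 scale to 53.6 to 59.3 RPKM over both lines, and Il1rl1, the receptor of IL-33, rose by 2.67 and 3.15 to at most 1.71 RPKM. Il11ra1, the IL-11 receptor that pairs with gp130, fell by 1.96 and 2.23, to 0.492 to 0.815 RPKM. Of the 17, 5 were called higher in Stat5a KI and 6 in Stat5b KI at 48 hr and 0 lower, where 6.35% and 16.5% of all genes were called higher and 2.43% and 9.81% lower. The median difference of the 17 was 0.99 and 0.45, against 0.04 and 0.10 for all genes. Il11ra1 was among those called higher, with differences of 1.06 (adjusted p = 3.17e-06) and 1.63 (adjusted p = 2.1e-10). Lifr, Il1r1, and Ifnlr1, also among those called higher in both KI lines, stayed below 1 RPKM in these groups. The markers of B cells, myeloid cells, and dendritic cells moved in the same directions. Their median log2 differences between KI and WT cells at 48 hr were 2.02, 1.47, and 1.68 for Stat5a KI cells and 3.78, 3.18, and 2.79 for Stat5b KI cells, and their median changes in WT cells by 48 hr were -2.69, -3.41, and -4.05, and -3.01, -4.16, and -4.40. The part of such cells in the levels of the partner receptors was not tested.

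Of 13 ligands tested, 3 were called higher and 7 lower in WT cells at 48 hr in each line (all genes, 14.3% and 22.3% for Stat5a and 14.6% and 20.7% for Stat5b), with medians of -1.21 and -1.16 against -0.12 and -0.13 for all genes. Between KI and WT cells at 48 hr, 2 were called higher and 2 lower in Stat5a KI (all genes, 6.35% and 2.43%), and 5 higher and 3 lower in Stat5b KI (16.5% and 9.81%), with medians of 0.37 and 0.66 against 0.04 and 0.10. Those that rose were Lif and Osm, which both signal through gp130, and Ifng, the product that IL-12 and IL-18 induce. Lif went from 0.114 to 0.541 RPKM in Stat5a WT at 0 hr to 24.0 to 36.9 RPKM at 48 hr and was 4.00 to 4.69 RPKM in Stat5a KI, and in the Stat5b line it was 23.4 to 29.4 RPKM in WT and 1.39 to 2.07 RPKM in KI cells at 48 hr. The KI level of Lif was lower in both lines, by -2.85 (adjusted p = 5.04e-09) and -4.05 (adjusted p = 1e-12) on the log2 scale. Osm at 48 hr was 29.7 to 30.5 RPKM in Stat5a WT and 16.5 to 17.9 RPKM in Stat5a KI, a log2 difference of -0.84 (adjusted p = 0.000376) under the 2-fold limit, and 28.8 to 33.5 RPKM against 6.13 to 8.27 RPKM in the Stat5b line, where the difference of -2.18 was called (adjusted p = 5.35e-12). Ifng at 48 hr was 35.6 to 81.2 RPKM in Stat5a WT and 5.64 to 11.8 RPKM in Stat5a KI, and 53.9 to 62.1 RPKM against 5.52 to 8.68 RPKM in the Stat5b line, lower by -2.67 (adjusted p = 6.73e-08) and -3.11 (adjusted p = 1.03e-09). Ifng, Lif, and Osm are among the genes the study itself named for these cells, so their direction is not independent evidence.

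Of 11 signalling proteins reported here, 0 were called higher and 2 lower in WT cells at 48 hr in each line, where 14.3% and 22.3% of all genes were called higher and lower for Stat5a and 14.6% and 20.7% for Stat5b, so that 2 of 11 is near the share of all genes. By the call rule 0 differed between KI and WT cells at 48 hr in either line (all genes, 6.35% higher and 2.43% lower for Stat5a, 16.5% and 9.81% for Stat5b). Jak2, which serves IL-12 and IFN-γ receptors, fell by 1.00 and 1.04 on the log2 scale in Stat5a and Stat5b WT. Stat4, the STAT of the IL-12 pathway, and Stat3, the main STAT of gp130, were not called in these comparisons at 48 hr, with differences between KI and WT cells of 0.07 and 0.22 for Stat4 and 0.09 and -0.02 for Stat3. Of 7 feedback inhibitors 2 were called higher in each WT line at 48 hr, and 0 and 1 lower, and 0 between the genotypes at that time, against the same shares of all genes. At 4 hr 2 of the 7 were called lower in Stat5b KI than in WT cells (1.23% of all genes), and at 24 hr 1 was lower in each line (1.24% and 5.77%). Socs1 rose by 2.97 and 2.87 and read 88.9 to 96.5 RPKM in Stat5b WT and 49.6 to 63.7 RPKM in Stat5b KI at 48 hr, a log2 difference of -0.72 (adjusted p = 0.006) under the limit. Of 4 decoys and shedding enzymes 1 was called higher and 1 lower in each WT line at 48 hr, and between the genotypes 0 at 48 hr and 1 lower in each line at 24 hr (all genes, 1.24% and 5.77% lower). With only 4 genes, the 48 hr counts do not stand apart from the shares of all genes, and the one that rose was Il18bp, the secreted binder of IL-18, by 2.20 and 1.98.

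Among 7 transcription factors of the type 1 programme, 2 were called higher and 1 lower in WT cells of each line at 48 hr (all genes, 14.3% and 22.3% for Stat5a and 14.6% and 20.7% for Stat5b), with medians of 0.05 and 0.10. Between KI and WT cells at 48 hr, 1 was called higher and 1 lower in Stat5a KI (6.35% and 2.43%), and 1 higher and 2 lower in Stat5b KI (16.5% and 9.81%), with medians of -0.11 and -0.23 against 0.04 and 0.10 for all genes. The one called higher was Hlx in both lines, by 1.60 and 2.86 on the log2 scale, at levels below 1 RPKM. Tbx21 (T-bet) rose by 1.88 and 1.28 on the log2 scale and Eomes by 1.79 and 1.25. Eomes at 48 hr was 57.8 to 70.8 RPKM in Stat5a WT against 24.2 to 28.3 RPKM in Stat5a KI, and 57.9 to 67.3 RPKM against 25.0 to 40.4 RPKM in the Stat5b line, with differences of -1.35 (adjusted p = 2.59e-07) and -1.01 (adjusted p = 1.25e-05). Tbx21 was 25.3 to 26.4 RPKM in Stat5b WT and 10.6 to 13.1 RPKM in Stat5b KI at 48 hr, with a difference of -1.17 (adjusted p = 2.94e-08), and in the Stat5a line the difference of -0.49 (adjusted p = 0.00835) was under the limit. Both factors are also named by the study for these cells, and their direction is not independent evidence. Of the 32 pathway genes called in these comparisons, 5 had a group at or under 3 reads, and no fold is given for them.

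**Figure D5:**
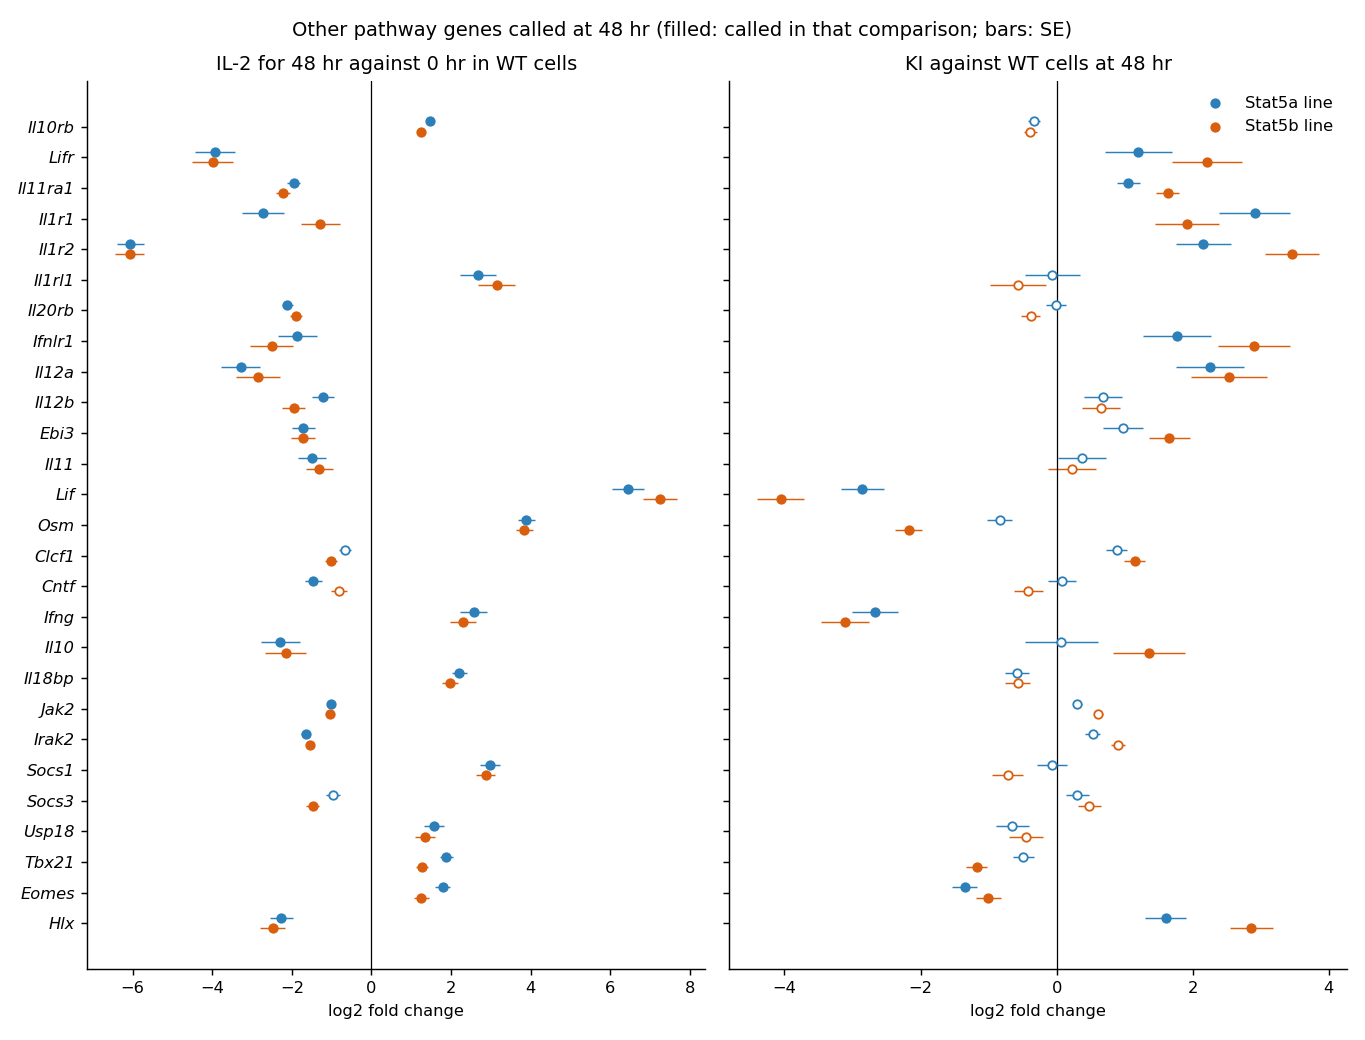
Log2 changes at 48 hr of 27 called pathway genes in the Stat5a and the Stat5b line, in WT cells with IL-2 against 0 hr (one panel) and in KI against WT cells (other panel), with standard errors. Lif, Osm, and Ifng lie above 0 in the first panel and below 0 in the second.

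Genes with courses most like those of the receptors were taken as the 3 with the highest Pearson correlation of mean log2 CPM over the 16 groups, which share libraries and times and are no independent points. For Il12rb1 they were Nrm (0.986), Cmc2 (0.984), and Tcf19 (0.981), and for Il12rb2 Ccp110 (0.956), Cish (0.946), and Tmem237 (0.945). For Il18rap they were Tbx21 (0.955), Igf2r (0.942), and Samd3 (0.939), while the highest for Il18r1 was Kcnj8 at 0.897. Il6st had Tas1r3 (0.977), Scml4 (0.956), and Ccdc142 (0.955), and Il6ra had Prickle3 (0.952), Leng8 (0.933), and Cyth1 (0.933). Ifngr1 had Nr6a1 (0.960), Hace1 (0.958), and Crem (0.954), Ifngr2 had Zswim4 (0.972), Lemd2 (0.964), and Klc4 (0.961), and Il27ra had Ascc1 (0.952), Tmem241 (0.951), and Lrrc24 (0.911). Il10ra, with Cubn at 0.814, had the loosest match of the 10. Among the receptors themselves the neighbours Il18r1 and Il18rap had the highest correlation, 0.84. The courses of the IL-12 receptor chains were only loosely alike, with a correlation of 0.25, while Il12rb1 ran with Il18rap (0.75) and against Ifngr2 (-0.95).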

How the data were processed

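RNA-seq was analysed in 47 of 48 libraries. Per the submitters' processing notes, reads were mapped to mm10/GRCm38 with TopHat2 2.0.11 (Bowtie2 2.2.6), and only unique mappers were kept. The authors deposited a raw count per RefSeq transcript and library, from which the authors computed RPKM per kilobase and mapped reads. The counting program and the use of strand are not given in the sources used here. Of 31682 transcripts the longest per symbol was used, which left 9 of the 10 receptors with their only transcript. Counts were fitted with edgeR 4.0.16 in R 4.3.3 (TMM, filterByExpr with a minimum count of 10, quasi-likelihood test, 1 mean per group, no covariate), after the fit was tested on simulated data. Calls needed an adjusted p (Benjamini-Hochberg) of 0.05 or less over all 15566 genes tested and a 2-fold change.

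The members and lists were chosen with earlier results of these data known. Named genes are all 10 receptors, pathway genes called at 48 hr, and for each receptor the 3 genes most like it. Replicate numbers were checked as pairs in 24 comparisons. In 2 of them, WT cells of the Stat5a line at 24 and 48 hr against 0 hr, each pair's deviations correlated (0.206 to 0.419 and 0.117 to 0.192), a pairing that comes from the data and not from the labels. The labels do not say that replicates are separate animals, so p-values measure the spread between these samples, which may be technical. The 46 library pairs within groups differed by a chi-square of 4.83 to 221 per gene, so none was a duplicate. A floor of 3 reads corresponds to 0.0498 to 0.173 CPM and covers only counting error, because PCR copies were not marked by molecular identifiers. Alternatives were DESeq2 1.42.0, its size factors in edgeR, limma 3.58.1 on log2 RPKM, other filters and transcripts, all 48 libraries, only the groups compared, a replicate block, and each library left out. The tables held 0 columns of other samples. The ChIP sample was not analysed here, 7 of 8 myeloid markers were used, and 1 signalling gene is not reported here.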

Additional observations from a re-analysis of the deposited data

Results flagged for a closer look

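The changes of KI and WT cells over culture with IL-2 differed, by the test of the difference itself, for 5 of the 10 receptors in at least 1 of 6 comparisons. Of all genes, taking each comparison by itself, 0.116% were called higher and 0.225% lower at 4 hr, 0.276% and 1.31% at 24 hr, and 3.16% and 3.09% at 48 hr for Stat5a, and 0.0964% and 0.514%, 3.51% and 6.66%, and 10.3% and 11.1% for Stat5b. The share of all genes called in at least 1 of the 6 was not taken, so nothing is read from the count of 5. For Il12rb2, the chain that completes the IL-12 receptor, the difference of the log2 changes from 0 hr (KI minus WT) was -2.03 at 24 hr and -1.72 at 48 hr in the Stat5a line, and -1.52 at 4 hr, -2.61 at 24 hr, and -2.43 at 48 hr in the Stat5b line. For Il12rb1 it was -1.05 at 24 hr and -1.24 at 48 hr in the Stat5b line. The Il12rb1 call at 24 hr was made in 17 of 21 alternatives, with values from -1.13 to -0.93, and is lost in limma on log2(RPKM + 1) and without replicate 1 of Stat5b WT at 0 hr, replicate 2 of Stat5b WT at 24 hr, or replicate 1 of Stat5b KI at 24 hr. For Il6ra it was 1.26 (Stat5a line) and 1.82 (Stat5b line) at 48 hr, and for Il6st 1.37 in the Stat5b line at 48 hr. For Il10ra it was -1.07 at 4 hr in the Stat5b line, a call made in 17 of 21 alternatives. The cause was not tested.

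The KI effect also differed between the lines (Stat5b minus Stat5a) by its own test. The difference was -1.04 for Il12rb2 and -1.05 for Il18rap at 4 hr, and -1.04 for Il12rb2 at 48 hr. Of the 20 alternatives that gave a value, the Il12rb2 call at 4 hr was made in 6 and the Il18rap call in 9, and of 21 alternatives the Il12rb2 call at 48 hr was made in 14.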

How the results depend on the processing

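Of the 82 calls made for the 10 receptors, 62 were made under every alternative and 20 were lost under at least 1, and no result changed its direction while called. Counts of receptor calls, with each library left out in turn, ranged from 23 to 27 for IL-2 in WT cells (24 with all 47 libraries), 12 to 13 for successive times (13), 17 to 19 for IL-2 in KI cells (18), 12 to 14 for KI against WT cells (13), 10 to 13 for the difference of the responses (11), and 1 to 4 for the difference between the lines (3). The last was 0 with all 48 libraries and 1 with DESeq2, with DESeq2 size factors in edgeR, with the transcript of the highest mean count, and with only the groups compared. At 48 hr the Stat5a KI count of 1 ranged from 1 to 2, with 2 without replicate 1 of Stat5a WT, and the Stat5b KI count of 4 from 3 to 4. With the replicate block the counts were 24, 13, 19, 13, 11, and 2, and in the 2 comparisons whose numbers pair the samples no call changed. Outside these, the Il12rb2 difference between the lines at 4 hr was lost under the block, and Il18r1 in Stat5b KI at 24 hr against 0 hr was gained, at 1.00.

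With all 48 libraries the difference of the responses of Il12rb2 at 4 hr in the Stat5b line was not called (adjusted p = 0.095), and neither was that of Il10ra, which is also lost in both limma fits and without replicate 3 of Stat5b WT at 0 hr, with values from -1.07 to -0.96. The median of all genes moved by up to 0.355 with limma on log2(RPKM + 1), 0.41 with log2(RPKM + 0.1), and 0.133 with no filter. The cause of these shifts was not tested.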

Other observations

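Of the 13 ligands tested, 7 were called lower in WT cells of each line by 48 hr (all genes, 22.3% and 20.7%), among them Ebi3 and Il12b, both known to be made by dendritic cells and myeloid cells. Ebi3, a subunit of IL-27, read 1.11 to 1.98 RPKM in Stat5b WT at 0 hr and 0.337 to 0.627 RPKM at 48 hr, a log2 change of -1.72 (adjusted p = 4.67e-06, edgeR's quasi-likelihood test), and Il12b, a subunit of IL-12, fell by 1.21 and 1.95 on the log2 scale in Stat5a and Stat5b WT. At 48 hr Ebi3 was 1.49 to 2.01 RPKM in Stat5b KI, above all WT libraries, with a log2 difference of 1.66 (adjusted p = 1.13e-05), while the summed RPKM of 4 dendritic cell markers was 1.55 to 2.11 in Stat5b WT and 10.8 to 13.02 in Stat5b KI. The part of such cells in these levels was not tested. Clcf1, a ligand of the gp130 family, was 18.0 to 19.5 RPKM in Stat5b WT and 38.9 to 49.2 RPKM in Stat5b KI at 48 hr, with a log2 difference of 1.15 (adjusted p = 6.27e-08), the opposite direction to Lif and Osm.

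Irak2, a kinase of the IL-18 pathway, fell in WT cells of both lines, from 6.80 to 8.62 RPKM at 0 hr to 2.74 to 2.97 RPKM at 48 hr in Stat5a WT, with log2 changes of -1.65 and -1.54 (adjusted p = 3.9e-16 and 2.52e-15). Its KI level at 48 hr was 4.01 to 4.50 RPKM in the Stat5a line and 5.25 to 6.24 RPKM in the Stat5b line, without overlap with WT cells, and both differences were under the 2-fold limit. Hlx, a transcription factor of the type 1 programme, was below 1 RPKM at 48 hr in all these libraries.

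The library of Stat5a KI at 4 hr that was left out held 0 reads on Il12rb1 and Il18rap, 2 on Il12rb2, 8 on Il10ra, and 53 on Il18r1.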
